A study of Homo sapiens with 7 samples.

Results

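The broad NuMA regions are the chromatin segments over which an antibody to the C terminus of NuMA gave a peak of at least 2000 bp that also overlapped a peak of an antibody to the NuMA N terminus. They were chosen from the C-terminal peak list of HCT116, a human line grown from a colon carcinoma, on chromosomes 1 to 22, X and Y, and 1 bp of overlap with the N-terminal list was enough. The rule found 849 regions among 10398 C-terminal peaks shared with the N-terminal list (8.17%) and 14240 C-terminal peaks in all. The 9549 shared peaks below 2000 bp are called compact here. All NuMA peaks came from wild-type cells, with 1 CUT&Tag library per antibody, so nothing measured in the NuMA lists has a replicate check. CUT&Tag brings the Tn5 transposase to an antibody on chromatin, and the enzyme then cuts and tags the DNA around it. Histone H1 was profiled in 2 wild-type libraries and in 2 libraries of NuMA-depleted cells, whose titles carry the tags NC and AID without explanation. The extent of the depletion is not given in the sources used here. Depletion cannot be told apart from whatever else differed between these cells. An immunoglobulin library of wild-type cells, the last of the 7 samples, was not analysed here.

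NuMA is a long coiled-coil protein of the interphase nucleus that moves to the spindle poles in mitosis. Its C-terminal part carries segments that bind microtubules and chromatin, and its N-terminal end contacts the dynein machinery. Histone H1, the linker histone, binds where DNA enters and leaves the nucleosome and favours closer packing of nucleosomes. The samples addressed where NuMA sits on chromatin and how H1 is placed with and without it. Positions are 1-based on hg19. A genome or gene annotation of that build was not used here, so genes under the regions are not named and sequences are not shown.

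The lists gave no read totals. The N-terminal list held 19518 peaks, and the wild-type H1 lists 4552 and 5553. The depleted H1 lists were shorter, with 2616 and 1480 peaks. The lowest local background recovered in an H1 list, which in lists of this kind moves with depth among other things, was 1.05 and 0.987 fragments in the wild-type and 0.681 and 0.502 in the depleted libraries. Depth and group can therefore not be told apart in the H1 data. Intervals given with shares are exact Clopper-Pearson intervals at 95%, and they cover counting error only. The labels do not say whether the H1 replicates came from separate cultures, so p-values measure only the spread between the libraries at hand, which could be technical.

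The widest regions reached several kilobases on both antibodies. The first, at chr8:145007964-145021697, was 13734 bp wide and lay under a single N-terminal peak of 15386 bp, with a C-terminal fold of 4.68 and an N-terminal fold of 6.95. The fold is the authors' enrichment of fragments over local background at the summit of a peak, and belongs to that peak and list alone. Next came a region of 9888 bp at chr20:60925276-60935163, with folds of 6.77 and 7.63 and an N-terminal peak of 9509 bp. A region of 8317 bp at chr17:7744902-7753218 was split by the N-terminal antibody into 2 peaks and had folds of 3.46 and 6.35. At chr9:140105970-140113447 a region of 7478 bp was covered completely by 1 N-terminal peak of 7566 bp, with folds of 6.15 and 9.21. The other 6 of the 10 widest measured 6783 to 7272 bp and lay at chr16:2023805-2031076, chr17:79977196-79984346, chr8:145673200-145680331, chr8:145022192-145029273, chr22:50738629-50745608 and chr19:49137511-49144293. None of the 10 widest had a C-terminal fold above 9.30, so the widest regions were not the most enriched ones.

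Most members lay close to the width limit. The median width was 2489 bp, the middle 50% lay between 2185 and 3104 bp, and 232 regions reached 3000 bp. Together the broad regions covered 2395 of the 10818 kb under shared peaks (22.1%). Just inside the limit, the first 3 regions by position measured 2000 bp and lay at chr1:161426139-161428138, chr16:29476615-29478614 and chr19:39893035-39895034, with C-terminal folds of 1.66, 4.42 and 4.57. Just outside, at 1997 to 1998 bp, lay chrX:153606394-153608391, chr16:2954212-2956208 and chr17:76354004-76356000, with folds of 5.59, 5.61 and 5.20. The limit therefore cuts through a continuous range of widths. With a limit of 1500 bp the rule gave 1721 regions, and when width was read from the N-terminal list it gave 1947.

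The N-terminal antibody gave a wide peak over most members, but not over all of them. Of the 849 regions, 639 (75.3%, interval 72.2 to 78.1) lay under an N-terminal peak of at least 2000 bp. Among compact regions the count was 1308 of 9549 (13.7%). The widest N-terminal peak over a broad region ranged from 442 to 15386 bp, with a median of 2557 bp. A single N-terminal peak overlapped 727 broad regions, 2 peaks overlapped 116 and 3 peaks overlapped 6, so the N-terminal list split some of them into parts. N-terminal peaks covered a median of 96.1% of the length of a broad region, covered at least 50% of 800 regions and covered 277 completely. The name "broad" thus holds for the C-terminal list by construction and for about 3 in 4 members in the N-terminal list. Among the 862 C-terminal peaks of at least 2000 bp, 849 (98.5%) had an N-terminal partner, against 9549 of 13378 narrower ones (71.4%). The other 13 wide peaks had folds of 6.89 to 16.9. A window of 500 bp on each side of the C-terminal summit overlapped an N-terminal peak in 97.4% of the wide and 71.3% of the narrower peaks. Shared wide peaks also had a higher median C-terminal −log10 q than shared narrower ones (16.3 and 10.9), whose part in this was not tested.

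**Figure D1:**
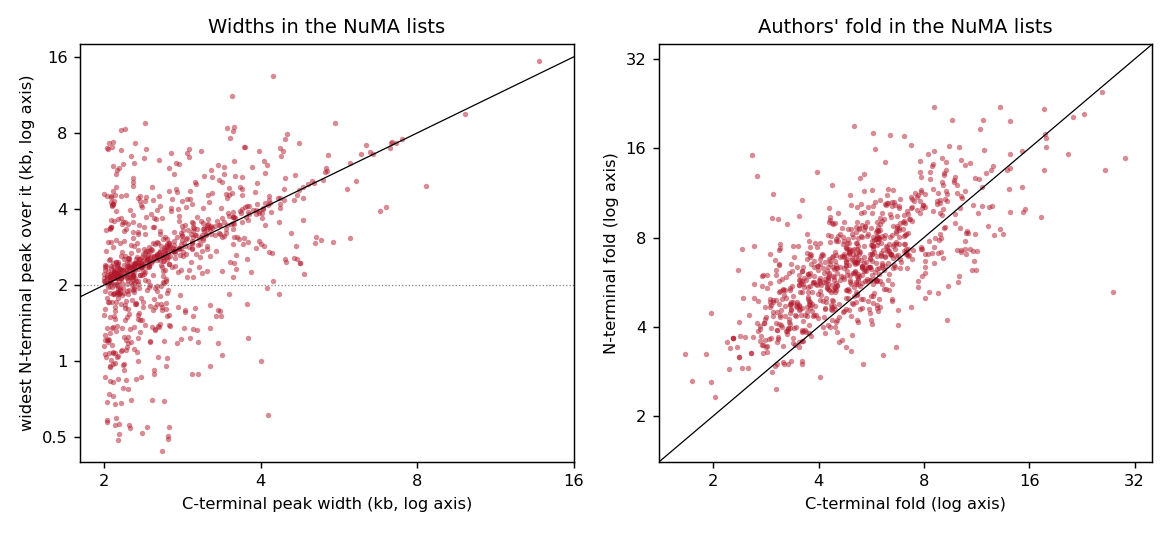
Each point is 1 of the 849 broad regions. Left: C-terminal peak width against the widest overlapping N-terminal peak, in kb on log axes, with the line of equality and a dotted line at 2 kb; 639 points lie at or above that line. Right: the authors' fold in the C-terminal and the N-terminal list, on log axes with the line of equality. The N-terminal value is the highest where several peaks overlap a region, and 677 points lie above the line.

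Summit enrichment differed little between broad and compact regions in the C-terminal list and was somewhat higher at broad regions in the N-terminal list. The median C-terminal fold was 5.09 (1.66 to 30.1) in broad and 4.95 (1.52 to 28.8) in compact regions, and 8.01% of broad and 8.73% of compact regions had a fold of at least 10. In the N-terminal list the medians were 6.47 (2.32 to 24.8) and 5.94 (1.51 to 34.9), and 15.4% of broad and 11.5% of compact regions had a fold of at least 10. Where several N-terminal peaks overlapped a region, the highest of their folds was taken. An overlap by 2 such peaks was found for 13.7% of broad and 0.628% of compact regions, which can raise the broad values. This order of the N-terminal medians turned when width was read from the N-terminal list, where the difference was −0.63 in place of 0.53. These values come from the lists that chose the members and are given as a description. Across the 849 regions the folds of the antibodies went together (Spearman's rho 0.69, Pearson's r 0.67), as they did across the 9549 compact ones (0.71 and 0.69). Points of 1 list share a library, and local copy number and background enter both lists. The backgrounds may also come from a common control, so the folds may share a denominator, which was not tested. Width and C-terminal fold were unrelated among broad regions (rho −0.01).

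Inside the NuMA lists, broad regions had more fragments on a higher background in the median. These values also come from the lists that chose the members and are a description. Fragment numbers and local backgrounds at the summits were worked out from the deposited fold and −log10 p of each peak. The median summit count was 49 in broad and 32 in compact regions in the C-terminal list, and 101 and 65 in the N-terminal list. The median background was 8.90 and 5.62 fragments in the C-terminal list and 14.3 and 10.5 in the N-terminal list. At chr1:6506482-6508714 and chr2:74667451-74669567 the summits of the antibodies coincided. Their C-terminal backgrounds were 16.9 and 13.5 and their N-terminal ones 28.5 and 22.8, in the same proportion. A control common to both lists was not tested, so the backgrounds are not taken as separate measurements. By width class the C-terminal summit count went from 27 below 600 bp to 54.5 at 3000 bp and above, and the background from 4.94 to 10.7, while the median fold stayed between 4.85 and 5.16. Summits of the antibodies lay within 200 bp of each other in 53.8% of broad and 72.7% of compact regions, and over 1000 bp apart in 153 (18.02%) and 7.02%. A longer region leaves more room for summits to differ, so these shares are descriptions only.

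The regions enriched most on both antibodies were mostly 2 to 3.5 kb wide. Ranked by the lower of the 2 folds, chr2:232535761-232538242 came first, with 25.9 (C-terminal) and 24.8 (N-terminal). The region at chr3:184070814-184073214 had 23.02 and 20.9, and chr12:53440574-53442783 had 21.3 and 20.4. These 3 had C-terminal backgrounds of 1.12, 0.477 and 1.48 fragments, far below the median of broad regions. The next were chr11:67234572-67237138 (17.8 and 17.8) and, on chromosome 19, chr19:55718083-55721448 (17.6 and 21.8), chr19:44172726-44174810 (17.9 and 17.4), chr19:45907820-45910254 (17.9 and 16.1) and chr19:49337468-49340944 (20.6 and 15.3). Chromosome 22 closed the 10 with chr22:19949680-19952783 (15.3 and 15.6) and chr22:38146598-38148976 (30.1 and 14.9), the second of which had the highest C-terminal fold of all members. None of these 10 overlapped an H1 peak of any library, which was also the case for 782 of the 849 members (92.1%).

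Broad regions were concentrated on a few chromosomes. Chromosome 19 held 181 of them (21.3%), chromosome 17 held 110, chromosome 16 held 84, chromosome 11 held 73, chromosome 1 held 69 and chromosome 8 held 46. Of the compact regions, chromosome 19 held 17.4%. These 6 chromosomes held 66.3% of the broad and 54.7% of the compact regions. They were picked by their number of broad regions, which favours the first share. Chromosomes 13, 15, 18 and 21 had 1 or 2 each, and chromosome Y had none among 3 shared regions. Where the share of shared regions that were broad is taken instead, chromosome 8 came first with 13.8% (interval 10.3 to 17.99), followed by chromosome 20 with 11.9% (8.60 to 16.03) and chromosome 11 with 10.9% (8.66 to 13.5). Most of the 46 broad regions of chromosome 8 lay in 1 stretch, between 143692951 and 146019382, so its share mainly describes that stretch. The intervals treat regions as independent, which clustered regions are not. At the low end, chromosome 3 had 2.93% (1.42 to 5.33) and chromosome 15 had 1.32% (0.160 to 4.67). Chromosome 19 itself had 9.83% (8.50 to 11.3), somewhat above the 8.17% of all shared regions.

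**Figure D2:**
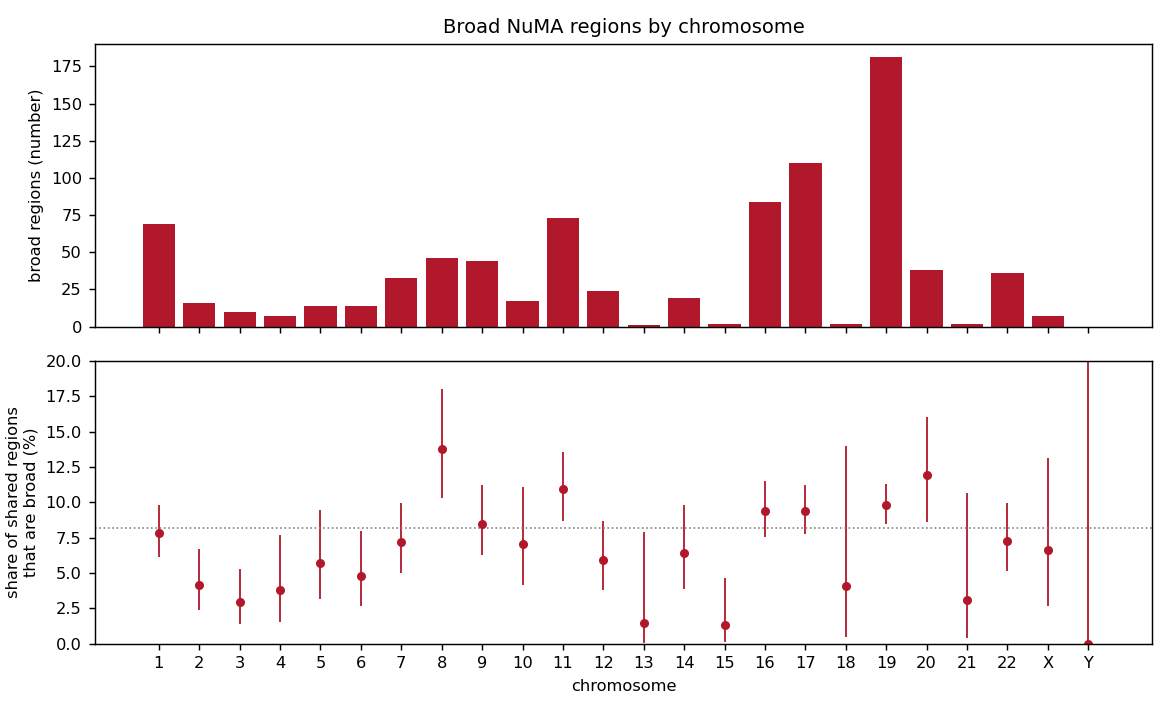
Upper panel: number of broad regions on each chromosome. Lower panel: share of shared regions that were broad, in percent, with exact 95% intervals and a dotted line at the 8.17% of all shared regions; the interval of chromosome Y, with 3 shared regions, runs past the axis. Chromosome 19 held the most regions (181), and chromosome 8 the highest share (13.8%).

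Broad regions lay in crowded parts of the NuMA map. The median number of other shared regions within 100 kb was 17 for a broad and 9 for a compact region. The median gap to the nearest shared region was 1734 bp for broad and 4740 bp for compact regions. Another C-terminal peak lay within 2 kb of 503 broad regions (59.2%) and of 36.5% of the compact ones, and within 10 kb of 92.3% and 71.0%. Another broad region lay within 100 kb of 645 broad regions (76.0%, interval 73.0 to 78.8), and a broad region lay within that distance of 46.9% of the compact regions. Without chromosome 19 these shares were 74.1% and 42.2%. The distance matters to the value, which was 68.2% at 50 kb and 89.2% at 500 kb.

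Chained over gaps of at most 100 kb, the 849 regions formed 158 clusters of 2 or more and 204 single regions. The 37 clusters with 5 or more held 326 regions. The largest lay at chr19:656933-1508734, with 32 broad and 125 compact regions, C-terminal folds of 2.81 to 12.6 and N-terminal folds of 3.95 to 13.95. The second, at chr8:144606538-145155801, held 23 broad and 47 compact regions and included the widest region of all. Chromosome 17 held clusters of 17 regions (chr17:79789422-80065731) and of 13 (chr17:79205832-79487382), and chromosome 11 one of 16 (chr11:405361-876955). By the known chromosome lengths of hg19, all 5 lay close to an end of their chromosome. Broad regions took up 18.8% of the span of the 17-region cluster and between 11.5% and 14.2% of the span of the other 4. The span on chromosome 19 held 2 and 3 H1 peaks of the wild-type lists and 0 of either depleted list, and that on chromosome 8 held 1 and 6 wild-type and 3 and 1 depleted H1 peaks. These are few of the 4552 and 5553 peaks of the wild-type and the 2616 and 1480 of the depleted lists. With lists of such unlike length, the counts do not show a change of H1 in a cluster.

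Some members were pieces of longer domains. With all C-terminal peaks chained over gaps of at most 1000 bp, the 849 regions fell into 812 domains with a median span of 2994 bp, of which 545 were a single peak and 34 held 2 or more broad regions. The longest ran over 21310 bp at chr8:145007964-145029273, with 97.7% of its span under 2 broad peaks. It was followed by 17248 bp at chr14:105432241-105449488, made of 6 peaks of which 3 were broad, and by 15530 bp at chr20:60925276-60940805. Spans above 10 kb numbered 19. Among domains longer than 5 kb, 145 held a broad region and 35 did not, whereas 812 of all 12772 domains held one. A peak of at least 2000 bp makes a long domain more likely by itself, so this is a description.

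H1 peaks lay at broad regions less often than at compact ones in each of the 4 H1 libraries. So that width would not decide the overlap, the main measure was a window of 500 bp on each side of the C-terminal summit. In wild-type replicate 1, 29 of 849 broad windows (3.42%, interval 2.30 to 4.87) overlapped an H1 peak, against 6.81% (6.31 to 7.33) of compact windows and 6.53% of all shared ones. Wild-type replicate 2 gave 28 windows (3.30%, 2.20 to 4.73), against 6.61% of compact and 6.34% of all windows. In NuMA-depleted replicate 1 there were 22 (2.59%, 1.63 to 3.897), against 4.73% and 4.56%, and in replicate 2 there were 4 (0.471%, 0.129 to 1.20), against 1.98% and 1.86%. The intervals of broad and compact windows did not overlap in any of the 4 libraries. Clustered regions are not independent, so these intervals may be too narrow and their separation is not a test. The difference was −2.59 ± 0.92 percentage points (SD, n = 4 libraries, exact two-sided sign-flip permutation p = 0.125), the smallest p that 4 libraries allow. Adjusted by Benjamini-Hochberg over the 6 main H1 comparisons, of which 4 gave this p, it was 0.188. Alternative forms of these comparisons, within classes or on another scale, are not counted among the 6. With every H1 list reduced to its 1480 peaks of highest fold the difference was −1.70 percentage points.

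Over their whole length broad regions carried an H1 peak at 31 and 37 places in the wild-type libraries (3.65% and 4.36%) and at 31 and 6 after depletion (3.65% and 0.707%). The same shares over all shared regions were 6.54%, 6.36%, 4.57% and 1.91%. A broad region was thus touched by an H1 peak less often than a compact one in spite of its greater width. H1 summits numbered 12.9 and 15.4 per Mb of broad region in the wild-type and 12.1 and 2.51 in the depleted libraries, against 64.5, 61.6, 44.5 and 19.1 per Mb of compact region. On the log2 scale, with 0.5 added to each count of summits, the ratio was −2.24 ± 0.43 (SD, n = 4 libraries, exact sign-flip permutation p = 0.125). It was −3.40 with H1 lists of equal length. In compact regions most H1 summits lay within 500 bp of the C-terminal summit (504 of 543 in wild-type replicate 1). Added length can therefore lower this ratio by itself.

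**Figure D3:**
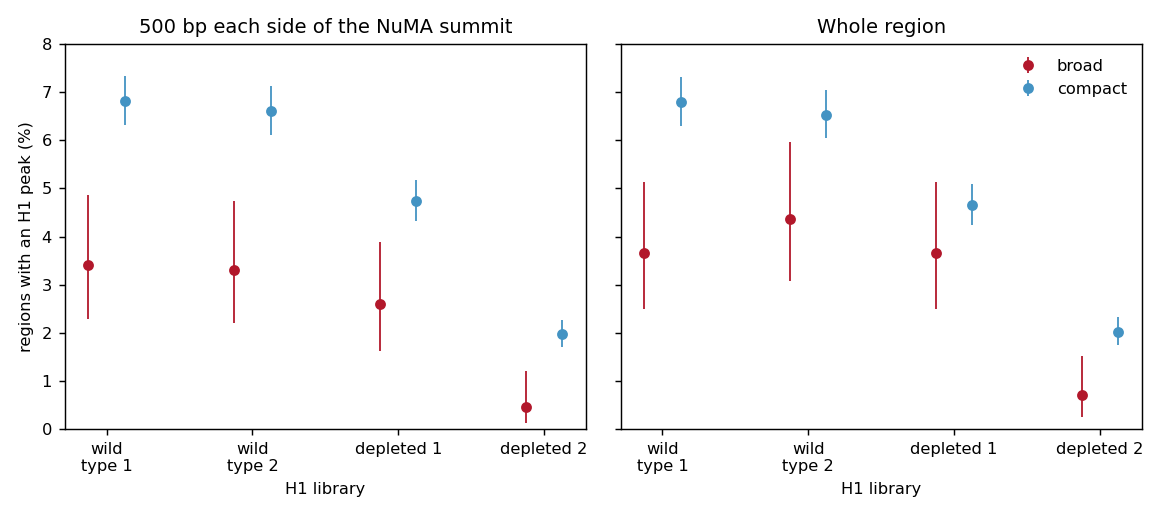
Percent of NuMA regions with an H1 peak in each H1 library, for the 849 broad and 9549 compact regions, with exact 95% intervals for counting error. Left: windows of 500 bp each side of the C-terminal summit. Right: the whole region. Broad regions sit below compact ones in all 4 libraries on both panels.

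The H1 peaks found at broad regions were also weaker ones of their lists. Their median fold was 5.06 and 5.40 in the wild-type and 5.60 and 5.94 in the depleted libraries. H1 peaks at compact regions had medians of 6.39, 6.16, 6.62 and 6.85, close to the medians of the complete lists (6.38, 6.15, 6.56 and 6.99). The difference was −1.004 ± 0.243 (SD, n = 4 libraries, exact sign-flip permutation p = 0.125), and −0.45 with H1 lists of equal length, where weak peaks had been removed.

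H1 summits gathered at the NuMA summit in both classes, less so at broad regions. Within 500 bp of a broad C-terminal summit there were 28.3 and 24.7 H1 summits per Mb in the wild-type and 21.2 and 4.71 in the depleted libraries. At 20 to 50 kb from the same summits the values were 3.49, 4.97, 2.47 and 1.24 per Mb. Near over far, this was an excess of 8.09 and 4.98 times in wild type, and of 8.57 and 3.81 times after depletion, against 13.9 to 20.5 times around compact summits. The log2 ratio of the broad to the compact excess was −1.55 ± 0.48 (SD, n = 4 libraries, exact sign-flip permutation p = 0.125), and −2.59 with H1 lists of equal length. At 20 to 50 kb the value around broad summits was 1.06 to 1.26 times the compact one in the 4 libraries. Flanks of neighbouring regions overlap, so an H1 summit can count for more than 1 region. Broad regions lay in more crowded surroundings, and the near-to-far ratio was not compared at like crowding. Of the H1 summits inside broad regions, 24 of 31 and 21 of 37 in the wild-type and 18 of 29 and 4 of 6 in the depleted libraries lay within 500 bp of the C-terminal summit.

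**Figure D4:**
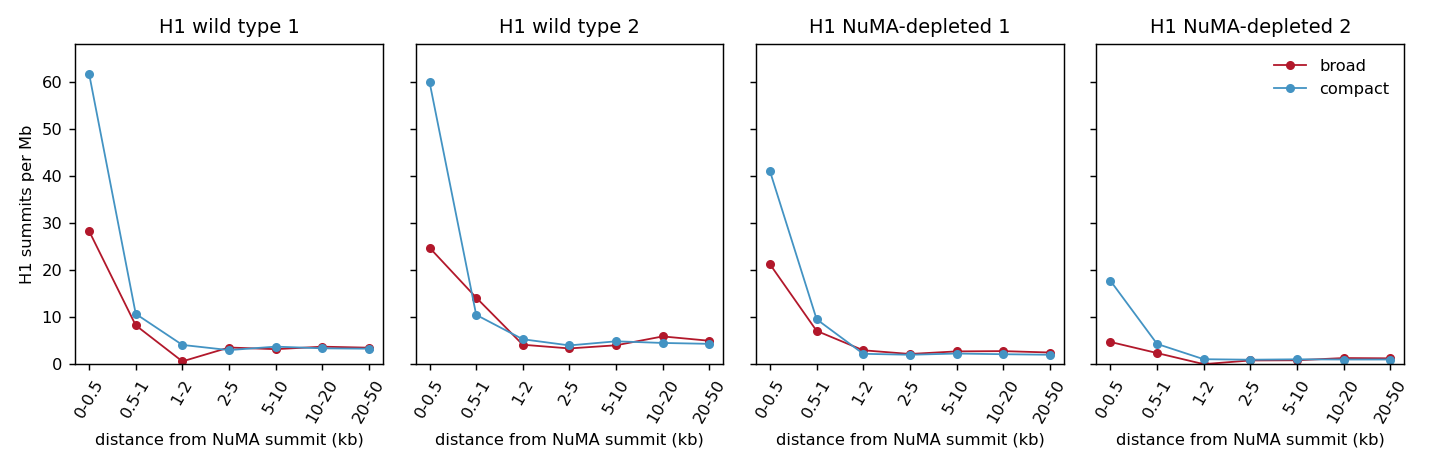
H1 summits per Mb by distance from the C-terminal NuMA summit (kb, classes of unequal width), for broad and compact regions in each H1 library. Within 0.5 kb the broad values (28.3, 24.7, 21.2 and 4.71) lie below the compact ones (61.7, 59.9, 40.9 and 17.7), and beyond 2 kb the lines run close together.

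The drop in H1 windows began below the width limit. Over the 4 libraries the mean share was 4.98% ± 2.3 (SD, n = 4) below 600 bp and 5.67% ± 2.4 from 800 to 1000 bp. It was 3.27% ± 1.4 from 1500 to 2000 bp, 2.31% ± 1.4 from 2000 to 3000 bp and 2.80% ± 2.1 at 3000 bp and above. The spread within a class comes mostly from the libraries, whose shares differed in every class. At like NuMA fold the order was the same, as broad windows were below compact ones in all 4 libraries within each of the 5 quintiles of C-terminal fold. In the lowest quintile the means were 1.34% for broad and 6.97% for compact windows, and in the highest they were 3.17% and 4.07%.

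The difference from compact regions followed how crowded the surroundings were. Among compact regions with no other shared region within 100 kb, a mean of 16.7% ± 6.9 of windows (SD, n = 4 libraries) overlapped an H1 peak. With 1 to 4 neighbours the mean was 7.21% ± 3.5, with 5 to 9 it was 3.91% ± 1.8, with 10 to 19 it was 2.01% ± 1.0 and with 20 or more 1.16% ± 0.54. Broad regions had 3.57% ± 4.1 with no neighbour, 3.85% ± 2.0 with 1 to 4, 3.57% ± 1.9 with 5 to 9, 1.92% ± 0.92 with 10 to 19 and 2.14% ± 1.5 with 20 or more. Only 14 and 65 broad regions lay in the first 2 classes, whereas 287 and 350 lay in the last 2. Broad windows were below compact ones in all 4 libraries up to 4 neighbours, in 2 of 4 libraries from 5 to 9 and from 10 to 19, and in 1 of 4 at 20 or more.

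Taken within these neighbour classes and weighted by their number of broad regions, the difference in H1 windows was −0.15 ± 0.35 percentage points (SD, n = 4 libraries, exact sign-flip permutation p = 0.5). It was −0.36 and −0.53 in wild-type replicate 2 and depleted replicate 2, and 0.05 and 0.23 in wild-type replicate 1 and depleted replicate 1. Within chromosomes alone it was −1.95 ± 0.60, and within both −0.19 ± 0.39. With quintiles of neighbours within 50 kb it was −0.07, and within 500 kb −0.42. The lower H1 share at broad summits was therefore not separable from the density of NuMA regions around them. Per Mb of region, the log2 ratio within the neighbour classes was −1.31 ± 0.47, below 0 in all 4 libraries (exact sign-flip permutation p = 0.125). Division by length lowers this ratio for wider regions where H1 summits gather at the NuMA summit. It therefore does not show a lower H1 level apart from width. These neighbour classes were chosen after the values had been seen.

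**Figure D5:**
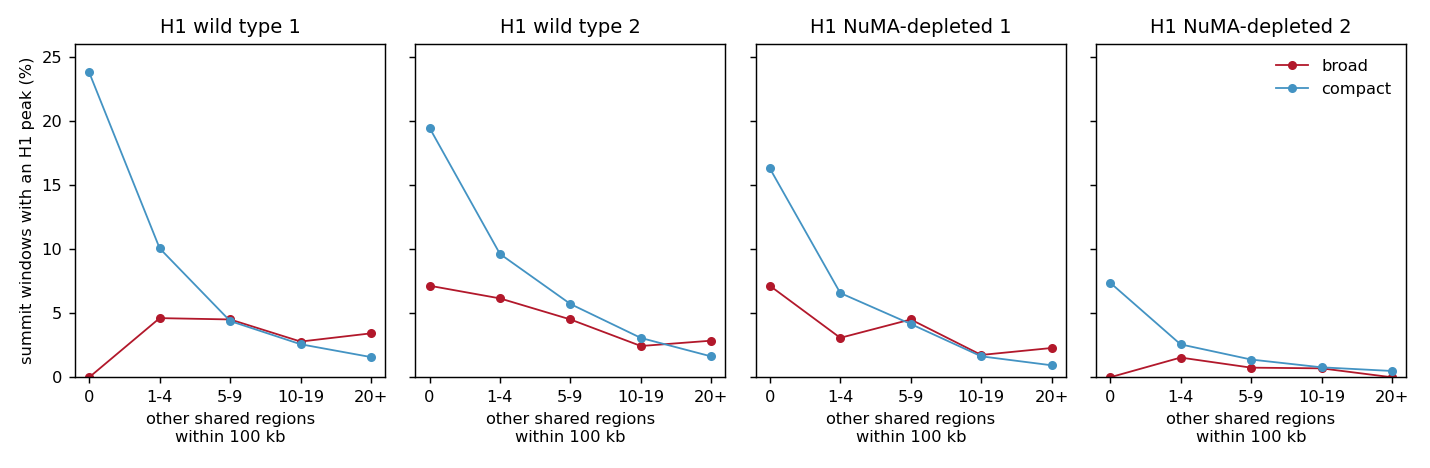
Percent of summit windows with an H1 peak by the number of other shared NuMA regions within 100 kb, for broad and compact regions in each H1 library. The compact line falls steeply from a mean of 16.7% with no neighbour to 1.16% with 20 or more, while the broad mean starts at 3.57% and ends at 2.14%, above the compact mean; the first broad point rests on 14 regions.

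The difference also varied by chromosome. On chromosome 19 the mean H1 window share over the 4 libraries was 2.07% at broad and 2.06% at compact regions. Of the 11 chromosomes with at least 20 broad regions, 7 had a lower mean share at broad regions, and chromosomes 1, 16, 19 and 20 had a higher one. On chromosome 11 the values were 0.342% and 3.45%, and on chromosome 1 they were 6.88% and 6.68%. Chromosome 20 had 1.97% and 1.88%, and chromosome 16 had 3.57% and 2.69%. The broad means rest on few windows, such as those of 73 regions on chromosome 11. The spread between libraries was not taken by chromosome, so these values are a description only. Chromosome 1 also had the most broad regions with an H1 peak in any list, 13 of 69, against 67 of all 849 (7.89%). The matching count of its compact regions was not taken.

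In summit windows, H1 calls at broad regions were fewer in both depleted libraries (22 and 4) than in both wild-type ones (29 and 28). This difference was −1.83 percentage points (exact permutation p = 0.333), where 2 against 2 libraries allow no smaller p. Over whole regions the libraries overlapped. The whole-region share was 4.005% ± 0.4997 in the wild-type and 2.18% ± 2.08 in the depleted libraries (SD, n = 2 each), again a difference of −1.83 percentage points (exact permutation p = 0.667, adjusted 0.667). Depleted replicate 1 had the same count of 31 as wild-type replicate 1, and the whole-region difference without depleted replicate 2 was −0.35. Without depleted replicate 1 it was −3.30. With H1 lists of equal length the direction turned to 0.41 percentage points. With the full lists, which differ in length, the whole-region share of compact regions was 6.67% ± 0.19 in the wild-type and 3.34% ± 1.86 in the depleted libraries (SD, n = 2 each).

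The gap between broad and compact windows was narrower in the depleted libraries, −1.83 ± 0.45 against −3.35 ± 0.06 percentage points (SD, n = 2 each, exact permutation p = 0.333, the smallest possible). As a ratio it did not hold in that direction. The broad share was 0.502 and 0.499 times the compact share in wild-type, 0.547 in depleted replicate 1 and 0.238 in depleted replicate 2, which as a log2 ratio gave a difference of −0.47 (exact permutation p = 1). With H1 lists of equal length the difference of the gaps was −0.34 percentage points, also opposite in direction.

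H1 was called at few individual members. An H1 peak of at least 1 list lay on 67 broad regions (7.89%, interval 6.17 to 9.91) and on 10.9% of the compact ones, and 44 of these 67 rested on a single list. Regions with a peak in all 4 lists numbered 3, against 81 compact ones. The first, at chr1:36865892-36868006, had H1 folds of 5.79 and 6.62 in the wild-type and of 7.20 and 6.63 in the depleted libraries, with NuMA folds of 8.07 (C-terminal) and 11.2 (N-terminal). At chr16:29465140-29467525 the H1 folds were 5.91, 5.62, 4.89 and 5.86, and the NuMA summits coincided to the base. The third, at chr1:17026531-17029495, had H1 folds of 4.41, 4.85, 6.34 and 5.09. Its C-terminal background of 36.8 fragments and that of the chromosome 16 region, 20.3, exceeded the median of broad regions.

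Of the 17 broad regions with an H1 peak in both wild-type lists, 6 had none in either depleted list, against 132 of 375 such compact regions, a similar proportion. Ranked by the lower of their wild-type H1 folds, the first 5 lay at chr1:53791269-53793318 (wild-type H1 folds 7.89 and 8.03), chr14:102414334-102416602 (8.79 and 6.62) and chr19:6752491-6755317 (7.83 and 5.54), chr19:58872995-58875028 (4.64 and 5.81) and chr19:5789233-5791312 (4.60 and 5.40). No broad region carried H1 peaks of both depleted lists without one of a wild-type list, for which the exact interval reaches up to 0.434%, and 6 of 9549 compact regions did. The depleted lists were shorter, so a missing call in them does not show that H1 was lost from a region.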

How the data were processed

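Trim Galore, Bowtie2, Picard, MACS2 and the build hg19 are named, without versions or roles, in the submitters' processing notes. The deposited files list peaks called per library, with 10000 cells per assay per the labels' protocols, and the peak names state a q limit of 0.001. For each peak the authors gave a score (10 times the −log10 q as a whole number, not used), a fold ratio over local background at the summit, a −log10 p and a −log10 q.

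Overlaps, windows, gaps and shares were computed with pandas 2.3.3, numpy 2.4.6 and scipy 1.17.1 under Python 3.11.15, and plots with matplotlib 3.10.9. The overlap, coverage, recovery and permutation code was tested on simulated data. Summit fragments and background were recovered as the whole count that best gives the deposited fold, (count + 1) / (background + 1), and the Poisson −log10 p; 100% of shared NuMA peaks and 99.5% to 99.8% of H1 peaks matched the p within 0.01. Peaks are not replicates, so conditions were compared over H1 libraries by exact two-sided permutation.

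Regions were named by rank in width, in the lower NuMA fold and in H1 fold, by cluster size and by nearness to the width limit. The members and lists were chosen with earlier results of these data known. Alternatives were other widths, overlaps, thresholds, windows, H1 lists and left-out libraries.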

Additional observations from a re-analysis of the deposited data

How the results depend on the processing

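Of 106 alternative values, 92 kept their direction or lay within their interval. The means of the 4 H1 measures that set broad against compact regions stayed below 0 under every alternative run that gave a value. The summit-window difference ranged from −3.69 to −0.07 percentage points. Within neighbour classes it was −0.15, a mean over classes of opposite direction, and not below 0 in every library. The near-to-far ratio and the H1 fold were not taken within those classes, and region width enters the ratio per length. The near-to-far ratio gave no value at a width limit of 3000 bp, where 1 library had no near summit. The number of regions was 1721 at 1500 bp, 232 at 3000 bp and 1947 by N-terminal width. The share with another broad region within 100 kb was 82.0%, 54.3% and 87.8% under those settings, 68.2% at 50 kb and 89.2% at 500 kb. The difference of N-terminal median folds was 0.34 at 1500 bp, 0.32 at a −log10 q of at least 5 and −0.63 by N-terminal width. H1 lists of equal length turned the depleted minus wild-type share at broad regions to 0.41 (exact permutation p = 0.333) and the change of the broad-minus-compact gap to −0.34 (exact permutation p = 0.667), and the ratio scale turned the latter to −0.47; the cause was not tested. Leaving out 1 H1 library gave −2.95 to −2.32 percentage points for the window difference, −2.36 to −2.04 for the log2 ratio per length, −3.30 to −0.35 for depleted minus wild type, 1.21 to 1.84 for the change of the gap, −1.66 to −1.32 for near over far and −1.09 to −0.90 for H1 fold. Same-numbered H1 libraries taken as pairs gave the same differences of −1.83 (exact p = 1) and 1.53 (exact p = 0.5), and over 10398 regions their deviations correlated at 0.03, so the numbers are not taken to pair them. Few fragments per summit limit the H1 calls: a region without an H1 peak may still hold H1.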

Other observations

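A group of broad regions on chromosome 1 stood apart by background and was chosen after its values were seen. The 3 with the highest C-terminal background of all members lay at 161418772 to 161420830, 161426139 to 161428138 and 161433581 to 161435605, with starts 7367 and 7442 bp apart. Their backgrounds were 133, 109 and 131 fragments, against a median of 8.90 over all broad regions, and their C-terminal folds were 1.97, 1.66 and 2.02. The N-terminal peaks over them had 561, 524 and 564 fragments at their own summits and folds of 2.60, 3.23 and 2.32. For the second region the N-terminal summit lay 3181 bp from the C-terminal one, outside the region. Only the third carried an H1 call, of fold 2.31 in wild-type replicate 2. Across all members, 4 regions had a C-terminal background of at least 50 fragments, all of them on chromosome 1.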
